A study of Mus musculus with 12 samples.

Results

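The genes described here handle calcium inside the cell: the pumps and exchangers that remove it from the cytosol, the channels that release it from stores, the mitochondrial uniporter, and the calmodulin-dependent enzymes that read it. The list holds 37 gene symbols, given by name, out of 24411 symbols in the count table. All 37 were present, and all 37 passed the filter on low counts that left 15199 genes to test. RNA came from the medial prefrontal cortex (mPFC) of female mice aged 8 to 12 weeks on a C57BL/6J background. The 4 groups of 3 libraries were unstressed wild type (WT), stressed WT, unstressed knockout (KO) and stressed KO, where KO mice lack a functional Cacna1g gene, which encodes the T-type calcium channel Cav3.1. The stressed groups had gone through chronic stress, a forced swim or a tail suspension test on each of 5 days. The unstressed groups had no such treatment. The WT animals were purchased from a breeder (Clea Japan) and the KO animals were supplied by the RIKEN BRC, and genotype and colony cannot be told apart. The labels name no promoter or cell type for the knockout and do not say which part of the gene is deleted.

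Calcium enters a neuron through channels such as Cav3.1 and is cleared by plasma membrane pumps, by sodium-calcium exchangers and by pumps that load the endoplasmic reticulum. The reticulum gives calcium back through IP3 receptors and ryanodine receptors, and STIM proteins sense an emptying store and open ORAI channels in the plasma membrane. Calmodulin and related EF-hand sensors bind the released calcium and switch on CaM kinases and the phosphatase calcineurin, which acts on NFAT transcription factors and on synaptic proteins in cortical neurons.

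Calm2 and Calm3 both encode calmodulin, and their messages are shown because a reader needs to know that they can be told apart. In GENCODE mouse release 21 the coding sequences are each 447 bases long, 149 codons, and translate to the same protein. They are 82.6% identical, with 78 different bases, of which 74 lie at the third base of a codon. The longest identical stretch of the chosen transcripts is 17 bases. The opening 90 coding bases follow, 5′ to 3′, with the 15 bases that differ in capitals. Calm2 lies on chromosome 17 (GRCm38, minus strand, coding start at 87446795) and Calm3 on chromosome 7 (minus strand, coding start at 16923843).
Calm2: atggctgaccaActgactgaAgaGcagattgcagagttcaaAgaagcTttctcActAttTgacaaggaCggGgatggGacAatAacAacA
Calm3: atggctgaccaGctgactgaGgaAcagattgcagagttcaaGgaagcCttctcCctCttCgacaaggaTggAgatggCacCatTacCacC
Calm3 was the only member with decimals in its estimated counts, in 5 of 12 libraries, with counts of 26769 to 51990.

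Promoters are shown for Atp2b2 and Slc8a3, the members that passed the test for genotype averaged over stress levels, and for Itpr3, the member with the lowest log2 fold change for stress in WT. The windows are the 250 bases before a RefSeq start site on GRCm38.p6, written along the gene's strand. The start sites of Atp2b2 are 3 in the RefSeq table, and 1 window that touched an annotated exon is not printed. Capitals mark a CRE half-site (TGACG or CGTCA, the core of the element bound by CREB, a target of CaM kinases) or a GC box (GGGCGG or CCGCCC), each searched on both strands.
Atp2b2, chr6:113934682-113934931, minus strand: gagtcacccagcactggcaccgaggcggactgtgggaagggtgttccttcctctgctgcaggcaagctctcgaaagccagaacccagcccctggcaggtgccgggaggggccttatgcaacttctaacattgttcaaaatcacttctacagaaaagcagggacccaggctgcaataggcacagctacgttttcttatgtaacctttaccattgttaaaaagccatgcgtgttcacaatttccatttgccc
Atp2b2, chr6:113891540-113891789, minus strand: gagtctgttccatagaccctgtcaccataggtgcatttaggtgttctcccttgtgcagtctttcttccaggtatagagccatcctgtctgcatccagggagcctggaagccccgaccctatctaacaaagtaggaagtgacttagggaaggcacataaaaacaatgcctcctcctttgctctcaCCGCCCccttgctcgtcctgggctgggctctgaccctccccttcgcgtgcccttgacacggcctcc
Slc8a3, chr12:81333181-81333430, minus strand: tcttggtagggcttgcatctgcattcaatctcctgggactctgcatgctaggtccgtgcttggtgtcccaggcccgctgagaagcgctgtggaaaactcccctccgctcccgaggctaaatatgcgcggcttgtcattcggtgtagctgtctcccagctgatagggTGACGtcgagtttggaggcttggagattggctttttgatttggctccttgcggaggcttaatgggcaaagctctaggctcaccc
Itpr3, chr17:27057054-27057303, plus strand: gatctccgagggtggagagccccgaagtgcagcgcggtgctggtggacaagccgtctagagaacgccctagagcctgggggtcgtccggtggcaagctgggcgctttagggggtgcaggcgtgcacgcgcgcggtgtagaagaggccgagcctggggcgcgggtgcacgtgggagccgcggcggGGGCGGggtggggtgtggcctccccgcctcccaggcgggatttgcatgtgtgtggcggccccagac
The Slc8a3 window holds 1 CRE half-site, and the Itpr3 window and 1 of the printed Atp2b2 windows hold 1 GC box each. RefSeq promoters were found for 27 of the 37 members, in 34 windows. Of these windows 8 (23.5%) held a CRE half-site, against 17.8% of all 32851 promoter windows, and 24 (70.6%) held a GC box, against 32.7%. The full element TGACGTCA, which contains both forms of the half-site, was in none of the members' windows and in 1.55% of all windows. The members' windows had a median GC content of 63.6%, against 52.4% over all promoters, and a GC box is made of those bases. A match is a description of the letters and not evidence of binding.

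The libraries held from 15469590 to 31082240 estimated counts. The targeted gene separated the labelled genotypes: Cacna1g was at 109 to 144 CPM (counts scaled to the size of the library) in the 6 WT libraries and at 54.6 to 66.0 CPM in the 6 KO libraries, without overlap. In log2 units the difference was -1.18 ± 0.09 (SE, adjusted p = 9.97e-05 in edgeR) for unstressed KO mice and -0.93 ± 0.09 (0.000519) for stressed ones. Its transcripts were lower in KO but not absent, so these counts do not by themselves show a loss of function. Cortical excitatory neuron markers, 9 genes, were present in every library and summed to 1534 to 2817 CPM. Unstressed WT libraries 1 and 2 stood apart from the other 10. Their 14 olfactory bulb markers summed to 1129 and 1185 CPM against 78.9 to 218 elsewhere, and their 12 meningeal fibroblast markers to 326 and 396 CPM against 52.6 to 147. Their 8 interneuron markers summed to 2120 and 1760 CPM against 934 to 1170. Gad1 was highest there, at 1356 and 1037 CPM (315 to 537 elsewhere). So were Gad2, at 380 and 352 CPM (163 to 310), and Slc32a1, at 209 and 178 CPM (79.3 to 116). Pvalb, Sst and Lhx6 of the same list were lowest of the 12 libraries there, Sst at 60.6 and 72.9 CPM against 153 to 217. Their sums of cortical excitatory markers were the lowest of the 12 libraries, at 1534 and 1812 CPM against 2326 to 2817. Cux2, Rorb and Foxp2 of that list were not lowest in both libraries. Cux2 was at 84.3 and 100 CPM there, against 38.7 to 102 elsewhere. Lhx1 and Barhl2, markers of the olfactory bulb, were at 0 in some libraries. After libraries 1 and 2, unstressed WT library 3 had the highest olfactory bulb and meningeal sums, at 218 and 147 CPM. Stressed KO library 1 carried 1017 CPM of 14 striatal projection neuron markers against 289 to 345 CPM in the other 11. Stressed KO library 1 and stressed WT library 3 also had the highest sums of 10 oligodendrocyte markers, 2798 and 3371 CPM against 1250 to 2096 CPM. Astrocyte markers (8 genes) summed to 3145 to 5565 CPM over the 12 libraries, microglial markers (8) to 384 to 505 CPM and markers of endothelium and mural cells (9) to 209 to 351 CPM. Unstressed WT libraries 1 and 2 were the lowest pair of all 12 for 14 of the 37 members (37.8%, against 17.7% of all genes tested) and the highest pair for 4 (10.8%, against 18.6%). The members' calls that use unstressed WT are therefore also given without them. In RNA from whole tissue, fewer cells of a type and less RNA per cell cannot be told apart.

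Levels differed widely between members (levels per kilobase of exon, mean of 12 libraries). Calm2 led with 1197 CPM per kilobase, followed by Calm3 at 671, Ppp3r1, the regulatory subunit of calcineurin, at 360, and Atp2a2, the main reticulum pump of brain, at 191. The lowest were Itpr2 at 1.24, Ryr1 at 1.07 and Itpr3 at 0.607 CPM per kilobase. The ranges over libraries separated Calm2 (887 to 1440) from Calm3 (571 to 814) and Calm3 from Ppp3r1 (269 to 448). Further down neighbours overlapped: Hpca spanned 91.8 to 162, Ppp3ca 84.9 to 118 and Ncald 60.4 to 134 CPM per kilobase. The leading 3 kept their order when the longest transcript replaced merged exons, and Atp2a2 then moved from rank 4 to rank 7. In 9 of the 12 roles a single member made up most of the listed genes' transcripts in all 12 libraries. Per length, Atp2a2 gave 98.8% to 99.5% of reticulum pump transcripts, Itpr1 91.5% to 97.9% of IP3 receptor transcripts, Slc8a2 61.9% to 83.1% of exchanger transcripts and Ryr2 60.9% to 77.2% of ryanodine receptor transcripts. The other such shares were 84.1% to 91.1% for Camk2g, 67.8% to 71.7% for Ppp3r1, 60.8% to 66.4% for Calm2, 57.97% to 69.1% for Micu3 and 50.3% to 61.9% for Hpca, whose mean share was 48.6% with the longest transcript. The median coefficient of variation of the members within a group was 9.72% for unstressed WT, 7.68% for stressed WT, 10.4% for unstressed KO and 7.53% for stressed KO, near the medians of all genes (11.1%, 8.31%, 9.25% and 8.34%).

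**Figure D1:**
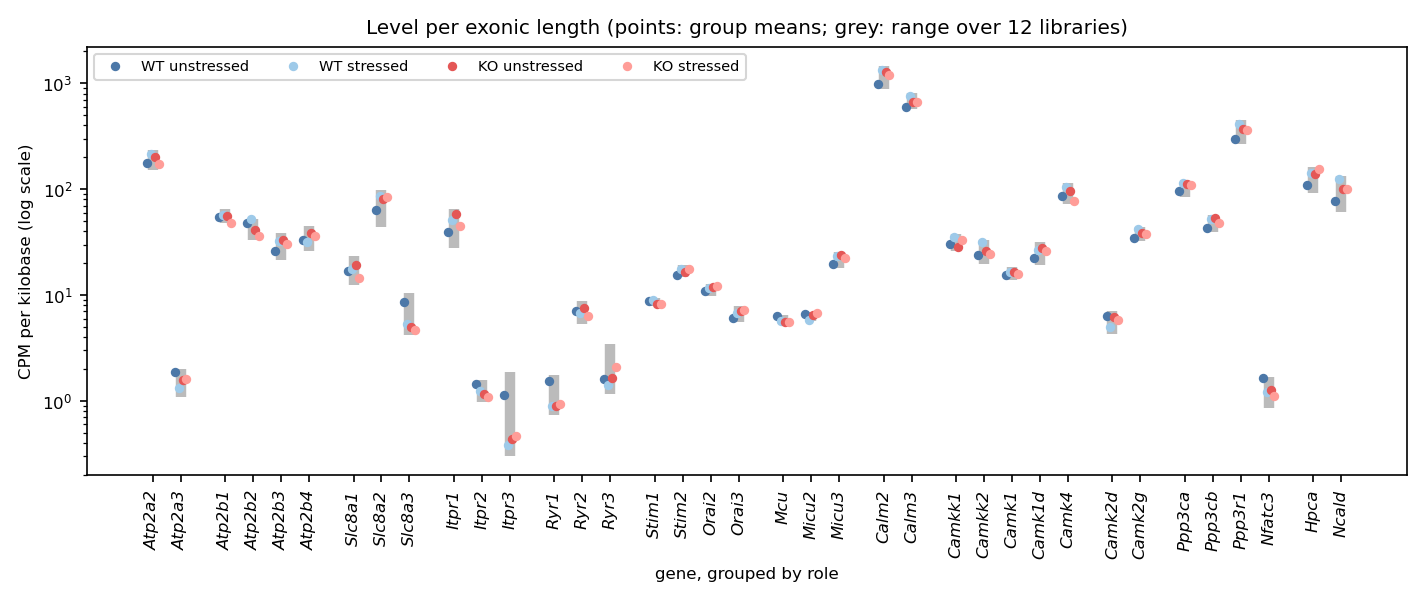
Level of each of the 37 members in CPM per kilobase of merged exon, on a log axis, with points for the 4 group means and grey bars for the range over 12 libraries. Calm2 sits highest at 1197 and Itpr3 lowest at 0.607, and the group means of most members lie close together compared with the distances between members.

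In WT mice, stress went with higher transcripts of both calmodulin genes, of the calcineurin subunit Ppp3r1 and of the sensor Ncald, and with lower Itpr3, Ryr1 and Slc8a3. The calcineurin subunits Ppp3ca and Ppp3cb, the sensor Hpca and the channels Itpr2 and Ryr3 did not pass. By edgeR's quasi-likelihood test with an adjusted p under 0.05 over all genes, 11 of the 37 members (29.7%) passed, 6 higher and 5 lower. Of all 15199 genes 21.9% passed, 9.71% higher and 12.1% lower. The 6 that rose were Ncald, Ppp3r1, Calm2, Camkk2, Calm3 and Micu3, with log2 fold changes of 0.26 to 0.69. The 5 that fell were Itpr3, Ryr1, Slc8a3, Atp2a3 and Camk2d, with log2 fold changes of -1.55 to -0.35. Levels of stressed and unstressed WT libraries did not overlap for 19 members (51.4%), against 36.6% of all genes. The unadjusted p was under 0.05 for 19 members and for 38.2% of all genes. The median log2 fold change was 0.17 over the members and 0.0023 over all genes. Oligodendrocyte markers moved in the same comparison: all 10 were higher with stress and 8 passed (median 0.95), with sums of 1940, 2096 and 3371 CPM in stressed against 1571, 1418 and 1318 CPM in unstressed WT, without overlap. All 10 were also higher without unstressed WT libraries 1 and 2 (median 0.96, 0 passing), and their part in the members' change was not tested. Unstressed WT libraries 1 and 2 carry the olfactory bulb and meningeal markers, and without them the members' median log2 fold change was -0.05. Calls were lost in that fit, which leaves 1 library in the group and cannot show the markers' part in them. That part was not tested. All 11 called members kept their sign without libraries 1 and 2, and 10 were smaller. The count of 11 members became 0 without unstressed WT library 2 or without stressed WT library 2, 3 without unstressed WT library 1, 6 without stressed WT library 3, 7 without stressed WT library 1 or unstressed KO library 1, and 23 without unstressed WT library 3.

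In KO mice none of the 37 members passed for stress, while 0.0197% of all genes did. The edgeR test gave 3 members with an unadjusted p under 0.05 (9.2% of all genes had one), and DESeq2 called 0. These were Slc8a1 (-0.39 ± 0.15, SE, log2 scale), Camk4 (-0.33 ± 0.15) and Camkk1 (0.22 ± 0.10), with adjusted p of 0.494, 0.539 and 0.539. The stressed and unstressed KO libraries were apart for 4 members (10.8%, against 16.9% of all genes), Atp2a2, Atp2b1, Itpr1 and Ppp3cb, each with lower values after stress. The difference between the genotypes in their response to stress was tested directly as an interaction. No member and no gene (0%) passed it in edgeR; 16 members had an unadjusted p under 0.05, where 28.5% of all genes did, and DESeq2 called 10. The smallest adjusted p in edgeR were those of Calm2 at 0.0597 and Ryr1 at 0.0625. Without unstressed WT library 3 the count for the interaction was 17, and without unstressed WT libraries 1 and 2 it was 0. For stress averaged over both genotypes no member passed (0.0395% of all genes), with 11 members at an unadjusted p under 0.05 (23.8% of all genes) and 4 called by DESeq2. All 37 members overlapped between the 6 stressed and 6 unstressed libraries, as did all but 0.849% of all genes. The number of members called for stress averaged over genotypes was 10 without unstressed WT library 3. Without libraries 1 and 2 of that group it was 0, with 4 members at an unadjusted p under 0.05, and the members' median was -0.04 against 0.04 with all libraries.

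Between genotypes without stress, 8 members (21.6%) passed, close to the 23.2% of all genes. Calm2, Micu3, Ppp3cb and Itpr1 were higher in KO and Ryr1, Slc8a3, Itpr3 and Mcu were lower, against 11.2% of all genes higher and 12.1% lower. The comparison shares the unstressed WT libraries with that of stress in WT. The unadjusted p was under 0.05 for 15 members and 39.1% of all genes. Libraries of the genotypes did not overlap for 9 members (24.3%, against 36.5% of all genes). Without unstressed WT libraries 1 and 2, 0 members and 18 genes passed in edgeR, with 4 members at an unadjusted p under 0.05. All 8 members kept their sign there and all 8 were smaller. The count of 8 became 0 without unstressed WT library 2, 1 without unstressed KO library 2, 3 without unstressed KO library 3, 4 without unstressed WT library 1 and 19 without unstressed WT library 3. It was 5 without each of unstressed KO library 1, stressed WT library 1 and stressed KO libraries 2 and 3.

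Between genotypes with stress, no member passed in edgeR (0.25% of all genes did), 6 members had an unadjusted p under 0.05 (13% of all genes), and DESeq2 called 1, Atp2b2. Libraries did not overlap for 12 members (32.4%, against 22.1% of all genes), 11 of them lower in KO and Micu2 higher. The count was 1 without unstressed WT library 3, and that member too was Atp2b2. For genotype averaged over both stress levels, 2 members passed, Atp2b2 and Slc8a3, both lower in KO. They are 5.41% of the members, where 3.22% of all genes passed as lower, 3.11% as higher and 6.33% in either direction. With an unadjusted p under 0.05 there were 8 members and 27.4% of all genes, and DESeq2 called 3 members. No member separated the 6 KO from the 6 WT libraries, while 2.25% of all genes did. The members' median was 0.01 against 0.0014 over all genes. Without unstressed WT libraries 1 and 2 neither passed, with adjusted p of 0.0580 for Atp2b2 and 0.211 for Slc8a3. The count of 2 became 9 without unstressed WT library 3, 0 without unstressed WT library 2, stressed WT library 1 or stressed KO library 3, and 1 without each of unstressed WT library 1, stressed WT library 2, unstressed KO libraries 2 and 3 and stressed KO library 2.

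**Figure D2:**
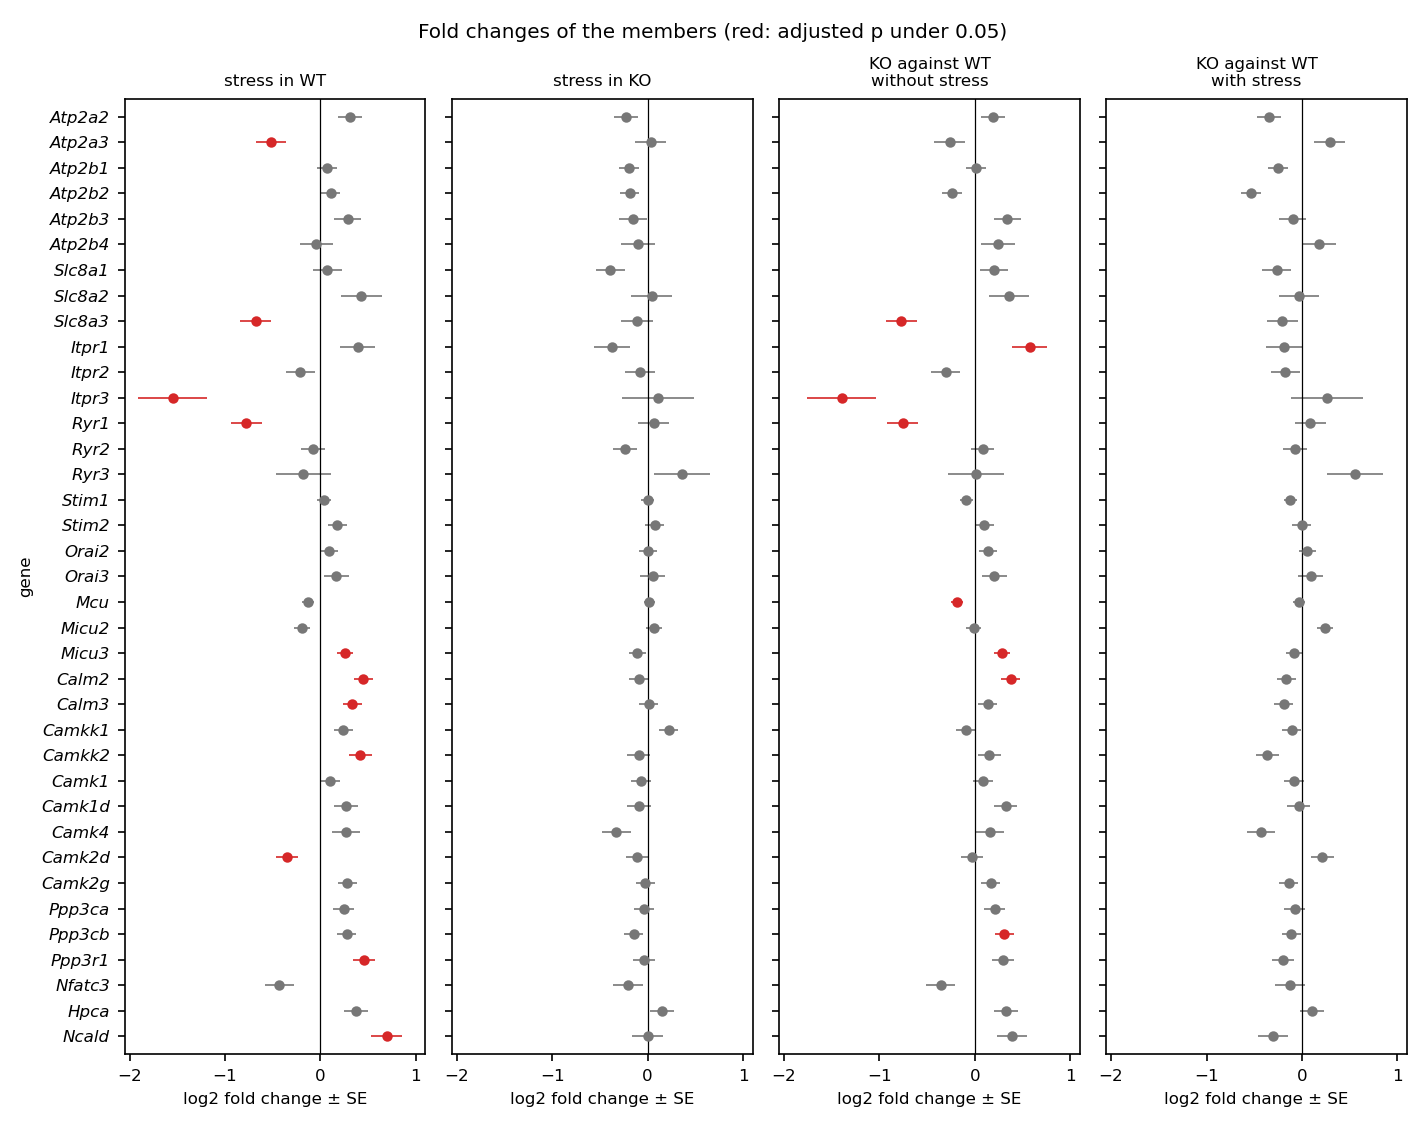
Log2 fold change of each member with its standard error in 4 comparisons, with red points for an adjusted p under 0.05 in edgeR. Red points appear in both comparisons that use unstressed WT (11 and 8 members) and in neither of the others, where Atp2b2 with stress stands at -0.53 ± 0.10.

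Of the plasma membrane pumps, Atp2b2 (PMCA2, a fast calcium extrusion pump of neurons, minus strand of chromosome 6, GRCm38 bases 113743831 to 114042613) was lower in KO mice. Its level was 559, 612 and 653 CPM in the unstressed WT libraries, 662, 635 and 666 with stress, 479, 488 and 579 in the unstressed KO libraries and 417, 516 and 422 with stress. The lowest WT library lay at 559 CPM, and 5 of the 6 KO libraries lay below it. Unstressed KO library 3, at 579 CPM, was the exception. Averaged over stress levels, the log2 fold change was -0.39 ± 0.07 (SE; 631 ± 40.5 CPM in WT and 484 ± 60.7 CPM in KO, SD, n = 6 each) with an adjusted p of 0.0184 in edgeR. Over 21 other settings it ranged from -0.45 to -0.34 and passed in 15, with adjusted p from 6.98e-05 to 0.0727. The call was lost without unstressed WT library 2 (0.0534), stressed WT library 1 (0.0532) or stressed KO library 3 (0.0542). Leaving out unstressed WT libraries 1 and 2, which carry the olfactory bulb markers, moved the value to -0.44 ± 0.09 (adjusted p = 0.0580).

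Within each stress level the Atp2b2 difference did not pass the test. With stress it was -0.53 ± 0.10 (95% interval -0.77 to -0.29, adjusted p = 0.0678 in edgeR), with all 3 KO libraries below all 3 WT libraries. It passed there in 4 of 22 other settings: DESeq2 (0.000385), 1 surrogate variable (0.0286), the olfactory bulb score as a covariate (0.0472) and without unstressed WT library 3 (0.0362). Without stress it was -0.24 ± 0.10 (adjusted p = 0.114), and the groups overlapped. Without stressed KO library 1, which carries the striatal markers, the difference with stress was -0.48 (adjusted p = 0.165 in edgeR) and the average over stress levels was -0.36 (0.0348).

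The other plasma membrane pumps did not pass in any comparison. Atp2b1 (PMCA1, the widely expressed form) was at 784, 800 and 916 CPM in the unstressed WT libraries, 842, 980 and 794 with stress, 827, 753 and 943 in the unstressed KO libraries and 753, 723 and 725 with stress. Its 3 stressed KO libraries were the lowest of the 12, just under unstressed KO library 2, and differed from stressed WT by -0.25 ± 0.11 (adjusted p = 0.351 in edgeR). Atp2b3 and Atp2b4, further pumps of the same family, ranged from 103 to 187 CPM and from 321 to 551 CPM, and both were lowest in unstressed WT libraries 1 and 2. As a share of plasma membrane pump transcripts per length, Atp2b2 made up 27.3% to 32.1% in the 6 WT libraries and 21.3% to 26.4% in the 6 KO libraries, which do not overlap. With the longest transcript in place of merged exons the ranges were 25.4% to 30.2% and 20.6% to 25.4%. This share was looked at after the values of Atp2b2 were seen and is given as a description. It does not depend on how the libraries were scaled.

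The reticulum pumps differed in scale and in behaviour. Atp2a2 (SERCA2) was at 915, 1017 and 1256 CPM in the unstressed WT libraries, 1273, 1438 and 1245 with stress, 1155, 1101 and 1388 in the unstressed KO libraries and 1058, 1064 and 997 with stress. The stressed KO libraries lay below all libraries of stressed WT and of unstressed KO, but no difference passed: stress gave 0.31 ± 0.12 in WT (adjusted p = 0.0878 in edgeR; 0.07 ± 0.15 and 0.874 without unstressed WT libraries 1 and 2) and -0.22 ± 0.12 in KO (0.613). Atp2a3 (SERCA3), a minor form here, was at 9.60, 10.6 and 9.74 CPM in the unstressed WT libraries, 5.95, 5.78 and 9.08 with stress, 9.08, 7.58 and 8.27 in the unstressed KO libraries and 8.08, 9.16 and 8.33 with stress. It fell by 0.52 ± 0.16 on the log2 scale with stress in WT (adjusted p = 0.0396), without overlap of the groups, although stressed WT library 3 was near the unstressed libraries. Without unstressed WT libraries 1 and 2 the value was -0.48 ± 0.23 (adjusted p = 0.418).

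**Figure D3:**
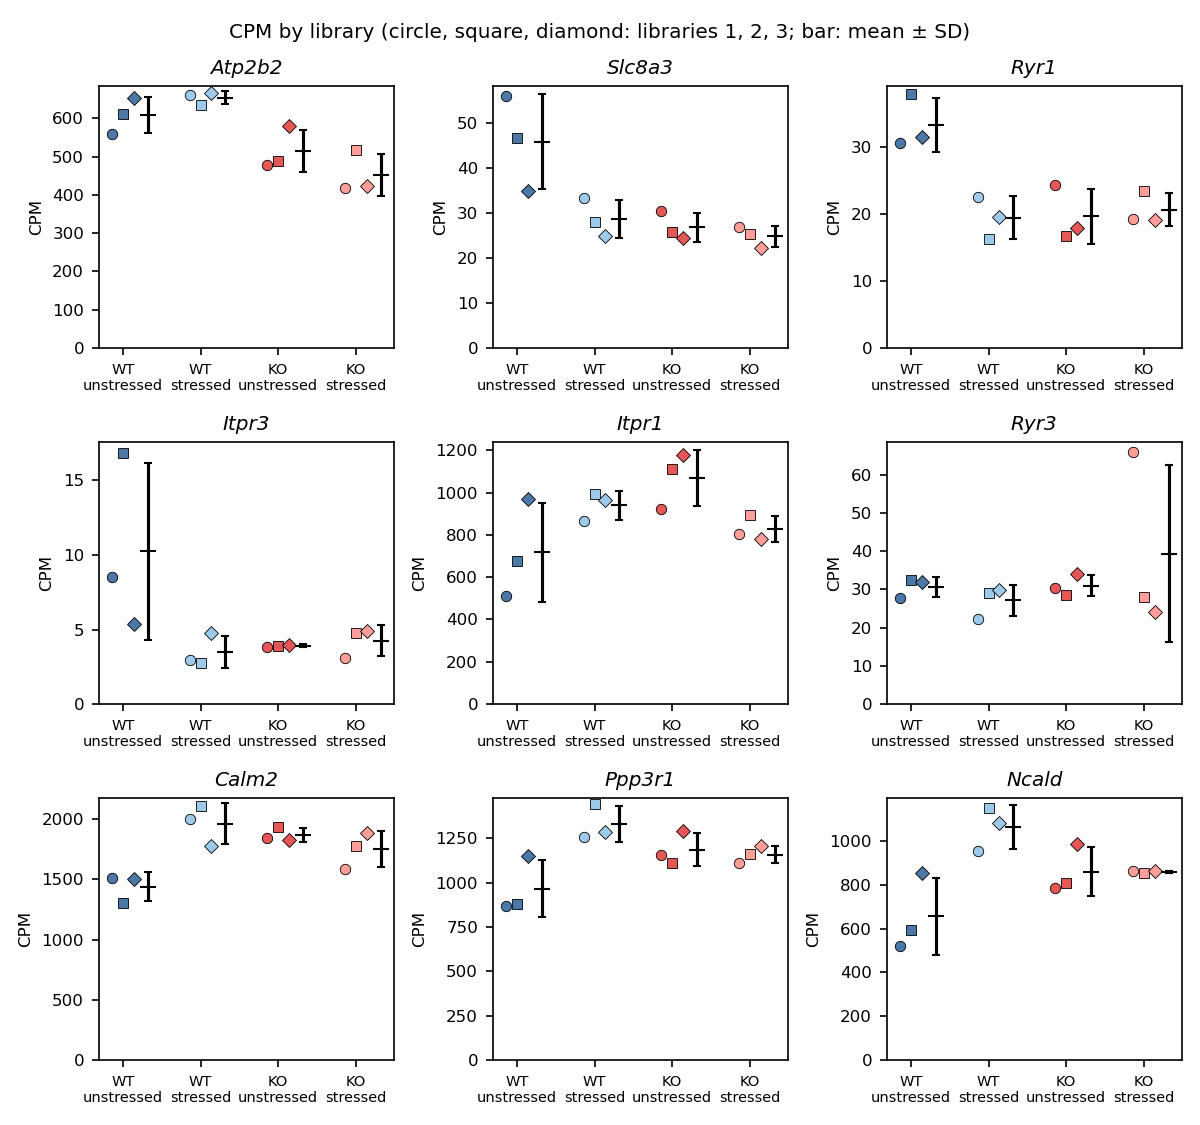
CPM of 9 members in each of 12 libraries (circle, square and diamond for libraries 1, 2 and 3 of a group) with the mean and SD of each group beside them. Atp2b2 is lower in the KO groups, the high values of Slc8a3 and Itpr3 are those of unstressed WT libraries 1 and 2, and Ryr3 has its highest value, 66.0 CPM, in stressed KO library 1.

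Slc8a3 (NCX3), the least abundant sodium-calcium exchanger of the list per length, was highest in unstressed WT. Its values were 56.0, 46.7 and 34.8 CPM in the unstressed WT libraries, 33.2, 28.0 and 24.7 with stress, 30.4, 25.7 and 24.3 in the unstressed KO libraries and 26.8, 25.3 and 22.2 with stress. All 3 unstressed WT libraries lay above the other 9, with library 3 just above the highest of them. It fell by 0.68 ± 0.16 with stress in WT (adjusted p = 0.0194 in edgeR) and was lower in KO without stress (-0.77 ± 0.16, adjusted p = 0.0128). With stress the genotypes differed by -0.21 ± 0.17 (adjusted p = 0.649), and averaged over stress by -0.49 ± 0.12 (0.0364). For stress in WT and for genotype without stress the values became -0.28 ± 0.17 (adjusted p = 0.504) and -0.37 ± 0.17 (0.328) without unstressed WT libraries 1 and 2. The averaged difference kept its sign in all 21 other settings, from -0.57 to -0.26, and passed in 9.

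The main exchanger, Slc8a2 (NCX2), showed the opposite picture in the same libraries. It was at 229, 290 and 484 CPM in the unstressed WT libraries, 432, 463 and 456 with stress, 392, 379 and 515 in the unstressed KO libraries and 445, 448 and 429 with stress. The lowest libraries were unstressed WT 1 and 2, and no comparison passed: stress in WT gave 0.43 ± 0.21 (adjusted p = 0.157 in edgeR) with them and -0.10 ± 0.16 (0.815) without them. Slc8a1 (NCX1) ranged from 234 to 436 CPM and passed nowhere.

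Of the IP3 receptors, Itpr1 was higher and Itpr3 lower in KO than in WT without stress. Itpr1, the main neuronal form, was at 509, 676 and 971 CPM in the unstressed WT libraries, 864, 994 and 964 with stress, 923, 1113 and 1177 in the unstressed KO libraries and 802, 895 and 780 with stress. Unstressed WT libraries 1 and 2 were the lowest of the 12, and library 3 of that group lay among the others. It was higher in KO than in WT without stress by 0.58 ± 0.19 (adjusted p = 0.0441 in edgeR), with overlap, and by 0.14 ± 0.15 (0.695) without libraries 1 and 2. After stress in KO its 3 libraries lay below the unstressed ones (-0.38 ± 0.19, adjusted p = 0.572).

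Itpr3, a form better known from epithelia and taste cells, was low throughout. It was at 8.53, 16.9 and 5.37 CPM in the unstressed WT libraries, 2.98, 2.74 and 4.74 with stress, 3.81, 3.92 and 3.99 in the unstressed KO libraries and 3.06, 4.77 and 4.93 with stress. The unstressed WT libraries were the highest, and libraries 1 and 2 most of all. It fell by 1.55 ± 0.36 with stress in WT (adjusted p = 0.0179 in edgeR) and was lower in KO without stress (-1.39 ± 0.36, adjusted p = 0.0218). Without libraries 1 and 2 these were -0.61 ± 0.31 (adjusted p = 0.447) and -0.46 ± 0.31 (0.522). The exons of Itpr3 overlap an antisense gene, Itpr3os, and whether reads were counted by strand is not given in the sources used here. Itpr2 ranged from 14.4 to 23.2 CPM and passed nowhere.

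Among the ryanodine receptors, Ryr1, best known as the release channel of skeletal muscle, was highest in all 3 unstressed WT libraries. It was at 30.6, 38.1 and 31.5 CPM there, at 22.6, 16.3 and 19.6 CPM with stress, 24.4, 16.8 and 17.9 in the unstressed KO libraries and 19.4, 23.5 and 19.2 with stress. Library 3 of unstressed WT was as high as library 1. Its bulb markers summed to 218 CPM against 1129 in library 1, the highest sum after libraries 1 and 2. The part of these markers in the Ryr1 values was not tested. Ryr1 fell by 0.78 ± 0.16 with stress in WT (adjusted p = 0.0136 in edgeR) and was lower in KO without stress (-0.76 ± 0.16, adjusted p = 0.0124). Without libraries 1 and 2 the values were nearly as large, -0.69 ± 0.21 (adjusted p = 0.324) and -0.67 ± 0.21 (0.225), on 1 remaining library that is assumed to vary like the other groups. Neither passed.

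Ryr2, the main form in cortex, was at 184, 207 and 221 CPM in the unstressed WT libraries, 184, 201 and 194 with stress, 199, 194 and 254 in the unstressed KO libraries and 196, 200 and 154 with stress. The groups overlapped in every comparison in which libraries were set against each other, and none passed. Ryr3, picked out after its values were seen, was at 66.0 CPM in stressed KO library 1 and at 22.3 to 34.0 CPM in the other 11. That is the library with 1017 CPM of striatal projection neuron markers, and the part of these in the Ryr3 value was not tested. The exons of Ryr3 overlap those of Aven on the other strand.

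**Figure D4:**
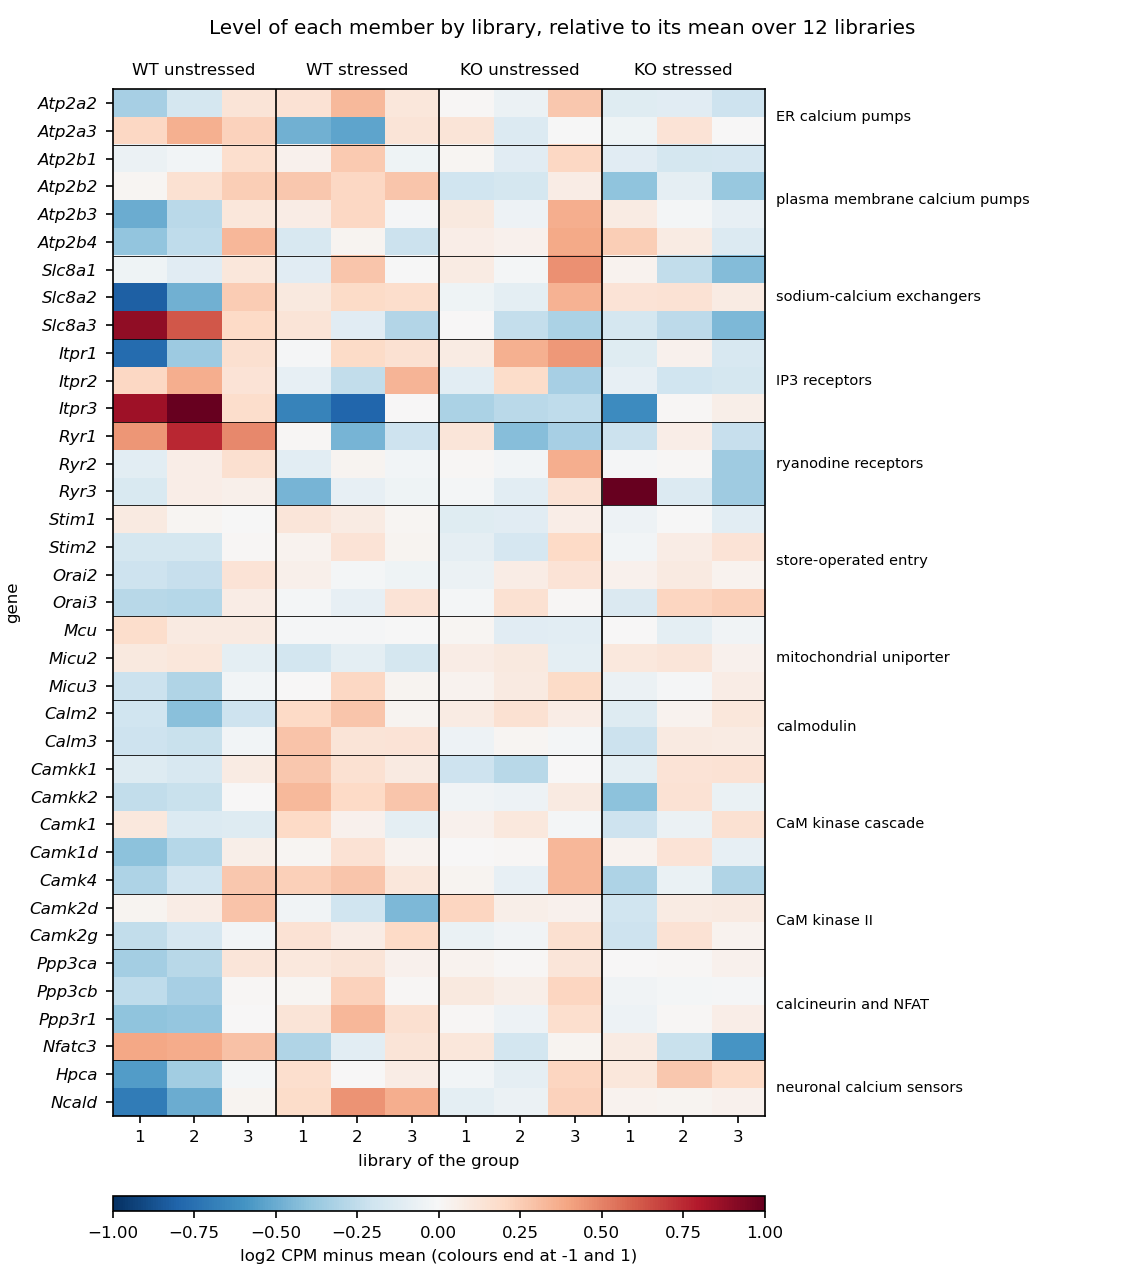
Log2 CPM of each member in each library minus its mean over 12 libraries, in rows grouped by role and columns grouped by genotype and stress, with colours that end at -1 and 1. Unstressed WT libraries 1 and 2 hold the lowest pair of values for 14 members and the highest pair for 4.

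No gene of store-operated entry changed by the test. None of Stim1, Stim2, Orai2 and Orai3 passed in any of the 7 comparisons in edgeR, and Stim1 alone reached an unadjusted p under 0.05, in 1 of them. Stim1, a sensor of an emptying store, was the member with the smallest p of this group. It was at 94.7, 90.1 and 89.0 CPM in the unstressed WT libraries, 96.7, 94.2 and 90.1 with stress, 82.0, 82.2 and 93.4 in the unstressed KO libraries and 86.2, 89.0 and 82.5 with stress. The lowest WT library was at 89.0 CPM, and 4 of the 6 KO libraries lay below it. Averaged over stress the difference was -0.11 ± 0.05 (95% interval -0.22 to 0.01, adjusted p = 0.181 in edgeR). This interval holds 0 although the unadjusted p was under 0.05, because it rests on fewer degrees of freedom than the test. Stim2, a sensor of milder store loss, ranged from 75.9 to 98.9 CPM, and the channel subunits Orai2 and Orai3 from 60.0 to 77.4 and from 11.9 to 17.0 CPM.

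Of the mitochondrial uniporter genes, Micu3, a brain-enriched gatekeeper that promotes calcium uptake, was the most abundant. It was at 118, 111 and 134 CPM in the unstressed WT libraries, 137, 158 and 140 with stress, 140, 146 and 157 in the unstressed KO libraries and 132, 136 and 144 with stress. Unstressed WT libraries 1 and 2 were the lowest. It rose by 0.26 ± 0.09 with stress in WT (adjusted p = 0.0492 in edgeR) and was higher in KO without stress by 0.28 ± 0.09 (0.0355). Without libraries 1 and 2 the values were 0.11 ± 0.11 (adjusted p = 0.704) and 0.14 ± 0.11 (0.605). Mcu, the pore, was at 45.5, 42.9 and 42.8 CPM in the unstressed WT libraries, 39.8, 39.9 and 40.1 with stress, 40.8, 37.2 and 37.4 in the unstressed KO libraries and 40.3, 37.6 and 39.1 with stress. All 3 unstressed WT libraries lay above the other 9. Mcu was lower in KO without stress (-0.18 ± 0.06, adjusted p = 0.0497), with -0.15 ± 0.10 (0.471) without libraries 1 and 2. Micu2, a gatekeeper that holds the pore shut at low calcium, ranged from 17.4 to 21.5 CPM and passed nowhere; all 3 stressed KO libraries lay above all 3 stressed WT libraries (0.24 ± 0.08, adjusted p = 0.246).

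Calmodulin transcripts, whose sequences are given above, had their lowest group means in unstressed WT. Calm2 was at 1512, 1301 and 1507 CPM in the unstressed WT libraries, 1999, 2113 and 1777 with stress, 1843, 1934 and 1830 in the unstressed KO libraries and 1590, 1781 and 1881 with stress. The 3 unstressed WT libraries lay below the other 9, library 3 included. Calm2 rose by 0.45 ± 0.10 with stress in WT (adjusted p = 0.0160 in edgeR) and was higher in KO without stress by 0.38 ± 0.10 (0.0227). Without libraries 1 and 2 the values were 0.38 ± 0.13 (adjusted p = 0.339) and 0.31 ± 0.13 (0.305), which did not pass. Calm3 was at 1398, 1383 and 1589 CPM in the unstressed WT libraries, 1972, 1769 and 1774 with stress, 1565, 1640 and 1596 in the unstressed KO libraries and 1396, 1724 and 1714 with stress. Stressed WT was the highest group, above all other libraries. Calm3 rose by 0.34 ± 0.10 with stress in WT (adjusted p = 0.0361), and by 0.21 ± 0.13 (0.534) without libraries 1 and 2. It did not pass between genotypes.

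Of the CaM kinase cascade, in which Camkk1 and Camkk2 activate Camk1, Camk1d and Camk4, only Camkk2 passed. It was at 242, 247 and 288 CPM in the unstressed WT libraries, 360, 331 and 348 with stress, 281, 277 and 306 in the unstressed KO libraries and 216, 318 and 275 with stress. The 3 stressed WT libraries were the highest of all 12. The rise with stress in WT was 0.42 ± 0.12 (adjusted p = 0.0325 in edgeR), and 0.26 ± 0.17 (0.528) without unstressed WT libraries 1 and 2. Camk4, the nuclear kinase that acts on CREB, was at 237, 257 and 352 CPM in the unstressed WT libraries, 346, 354 and 317 with stress, 299, 276 and 369 in the unstressed KO libraries and 237, 279 and 237 with stress. Stressed KO lay below stressed WT without overlap (-0.43 ± 0.15, adjusted p = 0.247), which did not pass. Camkk1, Camk1 and Camk1d ranged from 97.2 to 142, from 83.1 to 110 and from 142 to 237 CPM, and passed nowhere.

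CaM kinase II, the synaptic plasticity kinase, is represented by its gamma and delta genes. Camk2g was at 206, 217 and 239 CPM in the unstressed WT libraries, 269, 256 and 279 with stress, 233, 238 and 272 in the unstressed KO libraries and 211, 269 and 250 with stress. Stressed WT lay above unstressed WT without overlap (0.28 ± 0.10, adjusted p = 0.0602 in edgeR), which did not pass. Camk2d, a form abundant in heart, was at 132, 137 and 159 CPM in the unstressed WT libraries, 127, 114 and 95.6 with stress, 151, 136 and 134 in the unstressed KO libraries and 113, 138 and 139 with stress. It fell by 0.35 ± 0.12 with stress in WT (adjusted p = 0.0497). This was the only member called for stress in WT whose value grew without unstressed WT libraries 1 and 2, to -0.51 ± 0.15, though its adjusted p was then 0.324.

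The calcineurin subunits among the members were lowest in unstressed WT libraries 1 and 2. Ppp3cc, a catalytic subunit outside the member list, was highest there, at 49.1 and 36.5 CPM against 20.8 to 28.7 elsewhere. Ppp3r1, its calcium-binding regulatory subunit, was at 870, 881 and 1150 CPM in the unstressed WT libraries, 1256, 1446 and 1286 with stress, 1159, 1109 and 1294 in the unstressed KO libraries and 1111, 1161 and 1205 with stress. Library 3 of unstressed WT lay within the range of the KO libraries. The rise with stress in WT was 0.46 ± 0.11 (adjusted p = 0.0213 in edgeR), and 0.21 ± 0.13 (0.523) without libraries 1 and 2. The exons of Ppp3r1 overlap Wdr92 on the same strand. Ppp3cb, a catalytic subunit, was at 362, 344 and 435 CPM in the unstressed WT libraries, 437, 507 and 435 with stress, 463, 449 and 502 in the unstressed KO libraries and 422, 426 and 429 with stress. It was higher in KO without stress by 0.31 ± 0.10 (adjusted p = 0.0397), and by 0.12 ± 0.12 (0.682) without libraries 1 and 2. Ppp3ca, the other catalytic subunit among the members, ranged from 848 to 1176 CPM and Nfatc3, the transcription factor, from 10.1 to 19.8 CPM. Neither passed. For Nfatc3 all 3 unstressed WT libraries, at 18.6 to 19.8 CPM, were the highest of the 12.

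The neuronal calcium sensors were both lowest in unstressed WT libraries 1 and 2. Ncald, neurocalcin delta, a calcium-dependent membrane-binding sensor, was at 519, 595 and 856 CPM in the unstressed WT libraries, 954, 1150 and 1084 with stress, 785, 808 and 987 in the unstressed KO libraries and 862, 855 and 864 with stress. Libraries 1 and 2 of unstressed WT were the lowest, and library 3 matched the stressed KO group. Ncald rose by 0.69 ± 0.16 with stress in WT (adjusted p = 0.0175 in edgeR), and by 0.31 ± 0.15 (0.428) without those libraries. Hpca, hippocalcin, ranged from 268 to 474 CPM. With stress in WT it differed by 0.37 ± 0.13 (adjusted p = 0.0516), which did not pass, and by 0.10 ± 0.13 (0.778) without those libraries.

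**Figure D5:**
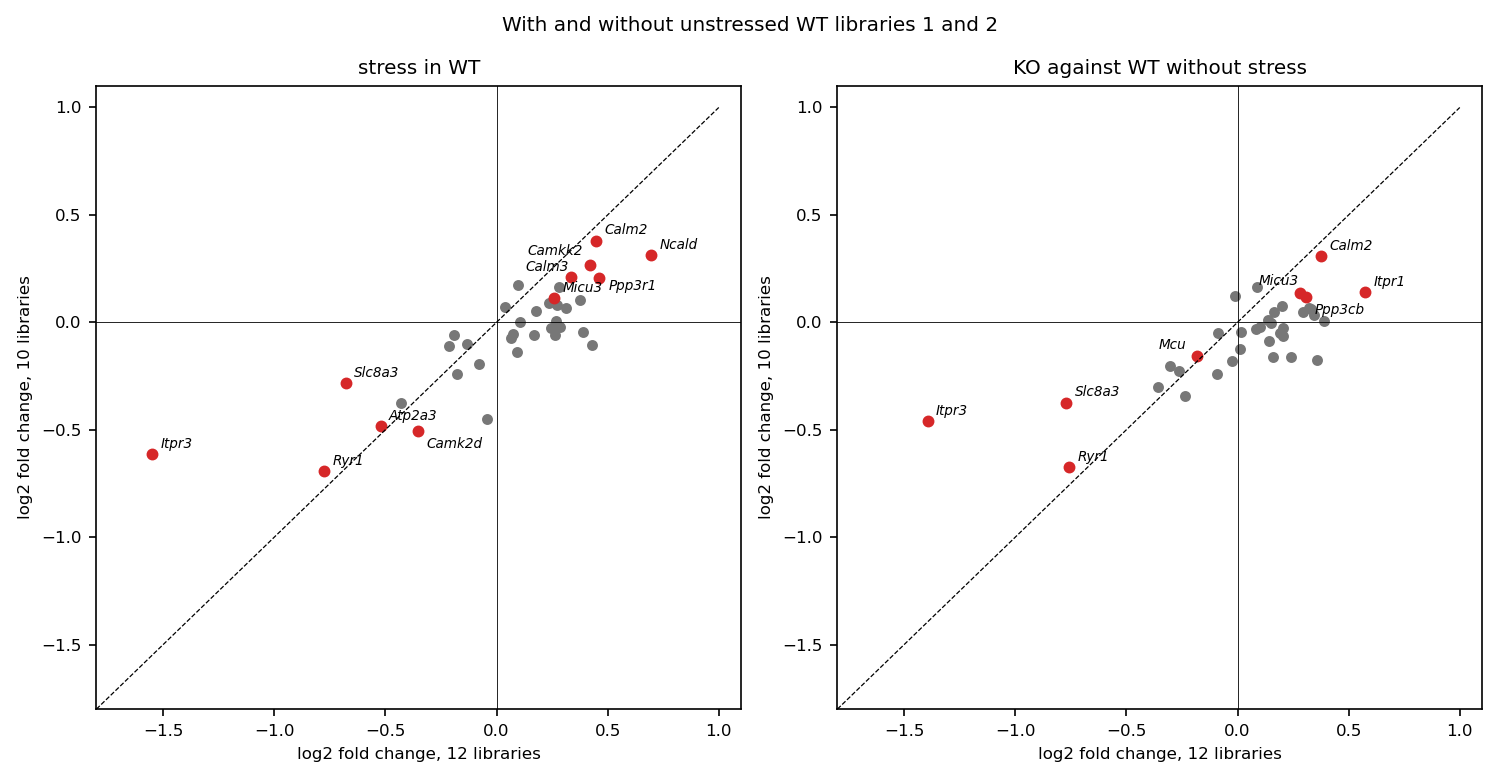
Log2 fold change of each member with all 12 libraries (x axis) and without unstressed WT libraries 1 and 2 (y axis), for stress in WT and for KO against WT without stress, with red points for members that passed with 12 libraries and a dashed line of equality. Most red points lie nearer to 0 on the y axis than on the x axis; Ryr1 and Calm2 lie close to the line, and Camk2d lies beyond it.

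Other genes of the same pathways were counted in 5 lists, which overlap in part (Calml4 is in both the calmodulin and the EF-hand list). With stress in WT, of 30 other store, pump and exchanger genes tested, Slc24a2 (0.90 ± 0.25) and Tmco1 (0.29 ± 0.09) rose and Slc8b1 (-0.57 ± 0.18) and Pln (-1.38 ± 0.45) fell. Slc24a2 is a potassium-dependent sodium-calcium exchanger, and Pln encodes phospholamban, an inhibitor of the reticulum pump. Of 13 other mitochondrial calcium genes, Vdac3 (0.30 ± 0.08) and Slc25a25 (0.21 ± 0.07), an outer membrane channel and a calcium-regulated carrier, rose and none fell. Of 29 other calmodulin, CaM kinase and calcineurin genes 7 rose and 5 fell, led by Nfatc4 (-1.70 ± 0.33), Pcp4 (0.48 ± 0.12), Gap43 (0.61 ± 0.16) and Chp1 (0.41 ± 0.11). Pcp4 and Gap43 bind calmodulin at low calcium.

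Of 24 other EF-hand sensors and buffers 5 rose and 4 fell with stress in WT, led by Pvalb (1.34 ± 0.22), Kcnip3 (0.65 ± 0.11), Efhd2 (0.63 ± 0.12) and Vsnl1 (0.73 ± 0.18). Pvalb, the calcium buffer parvalbumin, is also among the interneuron markers. Of 22 genes of IP3 production 2 rose and 4 fell, led by Plce1 (-1.84 ± 0.36), Plcl2 (0.63 ± 0.13), Itpkb (-0.69 ± 0.17) and Inpp5a (-0.35 ± 0.10). These are phospholipase C relatives and enzymes that consume IP3. The share of all genes called in this comparison was 21.9%, and it was 0% without unstressed WT libraries 1 and 2.

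Between genotypes without stress, where 11.2% of all genes passed as higher and 12.1% as lower, 1 gene of the 30 on the store list was higher in KO, Fkbp1b (0.35 ± 0.11), a ryanodine receptor partner, and 1 was lower, Orai1 (-0.66 ± 0.19). Of the 13 mitochondrial genes, Vdac3 (0.36 ± 0.08), Tmem65 (0.21 ± 0.07) and Smdt1 (0.44 ± 0.15) were higher and Ccdc109b (-1.54 ± 0.49), a uniporter paralog also called Mcub, was lower. The 29 calmodulin, CaM kinase and calcineurin genes had 3 higher and 5 lower, led by Gap43 (0.70 ± 0.16), Nfatc1 (-1.14 ± 0.29), Crtc2 (-0.48 ± 0.13) and Pcp4l1 (-1.76 ± 0.47). The 24 EF-hand genes had 10 higher and 4 lower, led by Cib2 (0.62 ± 0.11), Pvalb (1.12 ± 0.22), Kcnip3 (0.56 ± 0.11) and Hpcal4 (0.61 ± 0.14). The 22 genes of IP3 production had 1 higher and 4 lower, led by Plce1 (-1.75 ± 0.36), Inpp5a (-0.43 ± 0.10), Itpkb (-0.65 ± 0.17) and Plcl2 (0.42 ± 0.13). Without unstressed WT libraries 1 and 2, 18 genes passed in all and 0 of these lists, with 2 to 6 a list at an unadjusted p under 0.05, and the value of Ccdc109b was 0.04 ± 0.47.

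In the other comparisons within 1 genotype or stress level (stress in KO mice, genotype in stressed mice), and in the interaction, 0 genes of these 5 lists passed in edgeR. The number with an unadjusted p under 0.05 was 0 to 2 a list for stress in KO, 1 to 6 for genotype with stress and 2 to 11 for the interaction, and DESeq2 was not counted for these lists. For genotype averaged over stress levels, Cib2 (0.52 ± 0.08, adjusted p = 0.00785), Cabp7 (1.31 ± 0.33, 0.0436) and Gap43 (0.45 ± 0.11, 0.0409) were higher in KO and Plcb4 (-0.45 ± 0.09, 0.0207), a phospholipase C that makes IP3, was lower. Cib2, a calcium- and integrin-binding protein, was at 10.95 to 12.95 CPM in the 6 WT libraries and at 14.7 to 20.1 CPM in the 6 KO libraries, without overlap. Without unstressed WT libraries 1 and 2 none of these 4 passed: Cib2 was then at 0.50 ± 0.10 (adjusted p = 0.0554 in edgeR), Cabp7 at 0.89 ± 0.31 (0.200), Gap43 at 0.24 ± 0.07 (0.151) and Plcb4 at -0.43 ± 0.11 (0.118). In that fit Pcp4 passed for genotype with stress (-0.50 ± 0.09, adjusted p = 0.0380).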

How the data were processed

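RNA from mPFC of 12 libraries, 3 in each of 4 groups, was extracted with an RNeasy kit and made into libraries with a directional NEBNext Ultra II kit, per the labels' protocols. The authors deposited estimated counts per gene for each library. The submitters' processing notes name Trim Galore 0.6.6, STAR 2.7.9a, RSEM 1.3.1, DESeq2 1.36.0 and the build mm10. For the gene annotation, the read filters and whether counting used strand, the sources used here give nothing. Nothing in the labels ties each library to its own animal. The p-values therefore reflect only how much these libraries vary, which may be technical.

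The estimated counts were rounded and tested with edgeR 4.0.16 (R 4.3.3, limma 3.58.1): TMM scaling, filterByExpr (minimum count 10, minimum total 15), 1 fit of 4 group means with 8 residual degrees of freedom, quasi-likelihood tests that are two-sided, and Benjamini-Hochberg adjustment over 15199 genes. A call is an adjusted p under 0.05. Standard errors are the log2 fold change over the square root of F. The 95% intervals use these with a t distribution on the 8 residual degrees of freedom. The tests use more, so the intervals are wider than the tests imply. Levels per length used merged exons of GENCODE mouse release 21. The procedure was also run on simulated counts with known changes. No simulated library differed in tissue content, so that run does not bear on how the calls depend on single libraries.

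Each of the 37 members is described. Values of all libraries are given for members called in any comparison other than stress in WT, for the 10 called with the smallest p for stress in WT, and for the most abundant and the smallest-p member of each role. Of the pathway lists, called genes are named up to 4 a list. The members, the lists and the choice of libraries to leave out were made with earlier results of these data known. DESeq2 1.42.0, sva 3.50.0 and the other alternatives are described in the closing section. As a set, same-numbered libraries did not deviate together (18 pairs, median r -0.01, from -0.25 to 0.36, with 4 over 0.1). Other pairs of libraries from different groups had a median r of 0.02 (36 pairs, 7 over 0.1). A batch shared by some same-numbered libraries was not tested.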

Additional observations from a re-analysis of the deposited data

How the results depend on the processing

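The fold changes of the called members, and those of Atp2b2 within each stress level, kept their direction under every alternative run, while most calls did not hold in all of them. Members that were not called could turn, as Slc8a2 did for stress in WT. For stress in WT, 0 members passed when only the compared groups were fitted, with 1 surrogate variable, with the bulb marker score as covariate, without unstressed WT libraries 1 and 2, and without these and stressed KO library 1. The same 5 settings gave 0 members for KO against WT without stress. Of all genes, 3322 passed for stress in WT, and under these settings 0 to 3. For KO against WT with stress 1 member passed with DESeq2, with 1 surrogate variable and with the bulb covariate. For genotype averaged over stress levels 1 passed with 1 surrogate variable, and 0 with the bulb covariate or in either fit without unstressed WT libraries 1 and 2. DESeq2 called 10 for the interaction and 4 for stress averaged over genotypes. Leaving out 1 library at a time gave 0 to 23 members for stress in WT, 0 to 19 for KO against WT without stress, 0 to 1 with stress, 0 to 17 for the interaction, 0 to 10 for stress averaged over genotypes, 0 to 9 for genotype averaged over stress levels and 0 for stress in KO. Where 1 library was left in a group, it was assumed to vary like the other groups. The cause of these changes was not tested.

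With the replicate number as a block, 11 members passed for stress in WT, 7 for KO against WT without stress, 2 for genotype averaged over stress levels and 0 in the other comparisons. Nothing in the labels says that the numbers pair the libraries. Scaling by DESeq2 size factors gave 10, 7 and 2 in the same 3 comparisons, no filter on low counts 10, 6 and 2, and an offset on exonic length 13, 7 and 2. Shares within a role depend on the length used: 27 of the 37 moved by more than 1 SD within groups with the longest transcript. The other pathway genes were refitted without unstressed WT libraries 1 and 2, a setting chosen for them after seeing the data: of 70 calls, 67 kept their direction without passing, and 3 turned, Nfatc1 (0.077) and Pcp4l1 (0.0104) for stress in WT and Ccdc109b (0.0355) for KO against WT without stress. A count of 3 corresponds to 0.0920 to 0.192 CPM, far below the level of every member, so depth did not set which members could be tested.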
